A study of Drosophila melanogaster with 9 samples.

Results

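The resting adult midgut of Drosophila melanogaster was described from the 3 mock libraries of a series of 9 small RNA libraries that was made to follow midgut regeneration. These libraries were picked by their label, with earlier results of these data already known. The flies were wild-type Oregon-R, 4 to 5 days old, fed sucrose and sampled at day 0, and the other 6 libraries, from flies given the treatment that the labels write as Pe, were not used here. Whole midguts were profiled, so each value is a mean over enterocytes, enteroendocrine cells, progenitor cells and the visceral muscle and nerves attached to them, and fewer cells of a type cannot be told apart from less RNA per cell. The labels do not say whether the 3 mock libraries came from separate pools of flies, so their spread may be technical.

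A miRNA is cut from a hairpin precursor, first by Drosha in the nucleus and then by Dicer-1 in the cytoplasm, which leaves a duplex of a 5p and a 3p arm. One arm is usually kept in Argonaute and guides repression of messages that match its seed, the bases near its 5′ end, while the other arm is mostly degraded. Hairpins that lie close together on a strand can be cut from a common transcript, and miRNAs with the same seed form a family that can bind overlapping sets of messages. In the fly gut, miRNAs are known to act on ion transport, on lipid and sugar metabolism, and on the division of intestinal stem cells.

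Levels are given as RPM, the reads of a miRNA per 1000000 miRNA reads of its library. The table gives no read counts, so the largest step of which all values of a library are whole multiples was taken as 1 read. On that assumption mock replicate 1 held 707747 miRNA reads, replicate 2 held 363095 and replicate 3 held 497997. Of 467 miRNA names in the table, 110 were listed above 0 in at least 1 mock library and 82 in all 3. The libraries listed 99, 93 and 92 names in that order. The smallest value listed in each library was 2 reads on that scale, equal to 2.83, 5.51 and 4.02 RPM, so a 0 in the table may stand for 1 read. Reads include PCR copies, and no counting interval is given for them. How evenly different sequences were captured cannot be told from these values, so ranks, shares and ratios between miRNAs are those of reads. Across the 82 miRNAs listed in all 3 libraries, Spearman's rho between libraries was 0.975 to 0.985. These values describe likeness across miRNAs that share their libraries, and miRNAs are not replicates.

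The repertoire was steeply ranked. miR-956-3p took 78.5%, 73.6% and 72.3% of the miRNA reads of mock replicates 1, 2 and 3 (mean 74.8% ± 3.29, SD, n = 3). miR-10-5p, from the Antennapedia Hox complex, followed with 9.48%, 10.6% and 11.7% (10.6% ± 1.11). Each of those miRNAs held its rank in all 3 libraries, with no overlap between one and the next.

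The next places were close. miR-184-3p, a conserved miRNA studied in the female germ line, stood at 46589, 51491 and 53916 RPM. miR-263a-5p, which represses sodium channel subunits in the fly gut, stood at 30625, 43383 and 54551 RPM. Their ranges overlapped and their order turned in replicate 3. These 4 miRNAs together took 95.7%, 93.7% and 94.8% of the reads, and the 20 most abundant in each library took 99.3%, 98.9% and 99.1%.

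A gap followed the first 4 miRNAs. miR-10-3p, the other arm of the same Hox hairpin, came next at 5036, 8670 and 6211 RPM (mean 6639 ± 1855). miR-31a-5p stood beside it at 5359, 5756 and 7803 RPM (6306 ± 1312), and was the higher of the pair in 2 of 3 libraries. Every library put miR-263a-5p above both, without overlap.

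bantam-3p, which promotes tissue growth and blocks cell death, stood at 4093, 5731 and 4633 RPM. miR-8-3p, the fly relative of the vertebrate miR-200 family, stood at 4244, 5158 and 4357 RPM, within the range of bantam-3p. miR-14-3p, from a hairpin tied to fat storage and cell survival, was lower in every library at 2580, 4004 and 2444 RPM, and its range did not overlap that of miR-8-3p.

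miR-958-5p at 2485, 3410 and 2669 RPM and miR-305-3p at 2841, 2848 and 2596 RPM closed the first 11. The miR-305 hairpin is known to tune Notch and insulin signalling in the stem cells of the gut, a role that these levels do not assign to either arm. With a coefficient of variation of 5.19% in RPM, miR-305-3p was among the steadiest of the abundant miRNAs on that scale alone. With miR-956-3p taken out of the total, miR-305-3p stood at 13225, 10779 and 9367 RPM in replicates 1, 2 and 3. miR-276a-3p, next in the order, stood at 1496, 2335 and 2504 RPM, below every miR-305-3p value.

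From the 12th to the 20th place the order was loose, and the ranges of neighbours overlapped throughout. miR-276a-3p (mean 2112 ± 540 RPM), miR-317-3p (1999.9 ± 903), miR-958-3p (1857 ± 369), miR-11-3p (1579 ± 649.8) and miR-281-2-5p (1251 ± 260.0) led this stretch. It ended with miR-2b-3p (1120.4 ± 203), miR-34-5p (1112 ± 579.8), miR-283-5p (903 ± 180.2) and miR-277-3p (642 ± 179.7). miR-277 regulates the breakdown of branched-chain amino acids in flies. Over all 80 miRNAs with a mean of at least 10 RPM there were 79 pairs of neighbours in the order, of which 13 kept their order in all 3 libraries and 5 had ranges that did not overlap. By level, 4 miRNAs had a mean of at least 10000 RPM, 18 of at least 1000, 44 of at least 100 and 80 of at least 10.

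**Figure D1:**
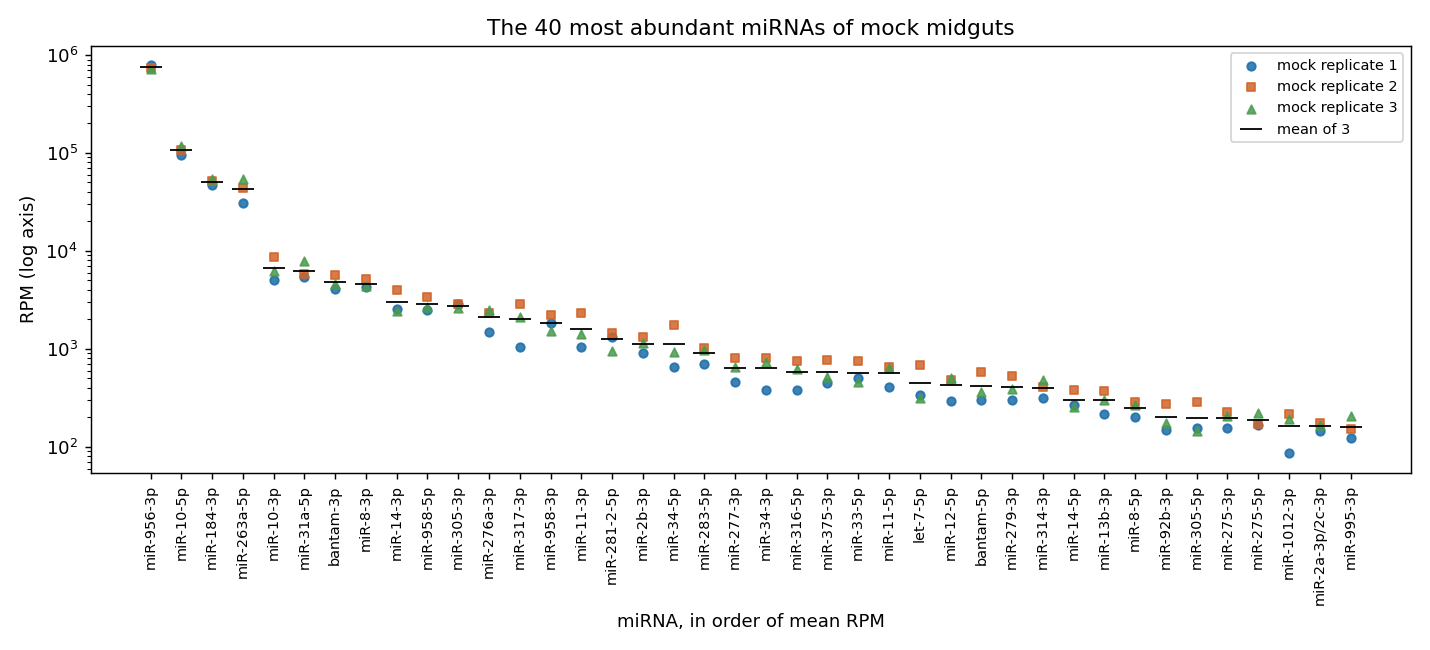
RPM of the 40 most abundant miRNAs in the 3 mock libraries (points, log axis) with their mean (bar), in order of the mean. The first 4 miRNAs stand apart from the rest, and from the 12th place on the points of neighbours overlap.

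The libraries differed in their composition below the top. Among the 64 miRNAs with a mean of at least 20 RPM, replicate 1 had the lowest RPM for 43 and replicate 2 the highest for 46. Replicate 1 also had the largest share of miR-956-3p. With miR-956-3p taken out of the total, replicate 2 was still highest for 43 of 63 miRNAs, and the lowest values fell to replicate 3 for 31 and to replicate 1 for 26. The part of miR-956-3p or of depth in this pattern was not tested. With trimmed mean of M values (TMM) scaling, which centres the libraries on the bulk of miRNAs, the highest values were spread over the libraries as 21, 19 and 24. The median coefficient of variation was 26.3% for RPM, 22.9% without miR-956-3p and 17.8% with TMM scaling. The widest spread in RPM was that of miR-2b-2-5p (71.8%) at 15.5, 63.3 and 26.1 RPM. miR-34-5p was the most variable of the first 20 in RPM (52.1%), at 649.9, 1763 and 924 RPM, and miR-956-3p the least (4.40%). A miRNA that takes most of a fixed total has little room to vary in RPM. With TMM scaling miR-956-3p stood at 974211, 589935 and 726561 RPM, and the lowest coefficient of variation was that of miR-2b-3p (4.88%).

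Hairpins were placed with an annotation of the BDGP6 build from Ensembl, in which many long non-coding RNAs are the primary transcripts of miRNAs. The hairpin of miR-956 (3L, 11773731 to 11773878, minus strand) and that of miR-31a (2R, 17783795 to 17783886, minus strand) lay outside other genes. Those of miR-10 (3R, 6809506 to 6809582, minus strand) and miR-184 (2R, 13329402 to 13329501, minus strand) lay in exons of non-coding RNAs, and so did that of miR-263a (2L, 11953410 to 11953503, minus strand). Of 38 hairpins in exons of non-coding RNAs 23 were listed in the mock midguts, against 25 of 96 in introns of protein-coding genes, 6 of 35 overlapping exons of such genes and 11 of 45 outside genes. Of 25 hairpins on the strand opposite to a gene, 2 were listed. Those with a mean of at least 10 RPM lay in exons of non-coding RNAs (22), in introns of protein-coding genes (20), outside genes (6) or over exons of protein-coding genes (2). These are counts of annotated hairpins, with no test.

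The locus of miR-956 carries a second hairpin on the other strand. miR-314 (3L, 11773012 to 11773101, plus strand) ends 629 bp before the miR-956 hairpin, and the pair point toward each other. miR-314-3p stood at 314, 408 and 476 RPM, far below its neighbour. By chromosome, 3L gave 76.2% of the reads, 3R 12.1%, 2R 6.67%, 2L 4.77% and X 0.142%, leaving out arms that several copies share. On X 6 of 50 hairpins were listed, and neither of the 2 on chromosome 4 was.

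The balance of the arms was then compared within each hairpin, where both arms share a precursor. The scaling of a library cancels there except through the pseudocount and the filter. Copies that share an arm in the table were summed, so their ratios join arms of different precursors. Hairpins with both arms named and at least 20 RPM in total numbered 46, and the log2 ratio of 5p to 3p, with a pseudocount of 4.02 RPM on each arm, was tested against 0 in limma. One arm was called higher in nearly all of them, by widely varying margins. limma called 42 of 46 hairpins at an adjusted p under 0.05 (91.3%), of which 19 favoured 5p (41.3%) and 23 favoured 3p (50%). The direction was the same in all 3 libraries for 44 of 46. The lower arm made up less than 1% of the hairpin in 18, less than 10% in 32, and at least 25% in 9. limma estimated a common variance for all hairpins, which gave each ratio an SE of 0.34. In 11 of the 46 hairpins the lower arm was listed at 0 in all 3 libraries. Those 11 passed the filter through the higher arm alone, so with this pseudocount and SE their calls were fixed in advance. With each hairpin's own variance 36 were called, 14 for 5p and 22 for 3p.

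The strongest 3p dominance was that of miR-956. Its 5p arm was listed at 76.3, 99.1 and 82.3 RPM, or 0.0115% of the hairpin, against 3p at 722808 RPM or more in each library. The log2 ratio was -13.03. miR-184 came next with a 5p arm of 11.3, 11.02 and 20.1 RPM (0.0276% of the hairpin, log2 ratio -11.48). miR-317, the summed copies of miR-276 and miR-279 followed, with log2 ratios of -7.20, -6.90 and -6.64. The 5p arm of miR-279 was listed at 0 in all 3 libraries, so its ratio rests on the pseudocount, and with 0.5 RPM it was -9.63, beyond those of miR-317 (-7.67) and miR-276 (-7.25).

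On the other side, miR-31a-5p was listed with no 3p read in any library. miR-263a followed with 99.9% of its reads in 5p, the 3p arm standing at 25.4, 41.3 and 24.1 RPM (log2 ratio 10.28). miR-283, miR-33 and miR-12 were next, with log2 ratios of 7.27, 7.12 and 6.71. miR-33 lies in an intron of SREBP, a regulator of lipid synthesis. Its 3p arm and that of miR-12 were listed at 0 throughout, and that of miR-283 was listed in replicate 3 only. The order of these hairpins therefore rests on the pseudocount, and with 0.5 RPM the log2 ratios were 9.43 for miR-283, 10.12 for miR-33 and 9.71 for miR-12.

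Several abundant hairpins kept a sizeable second arm. miR-10 had 95.0%, 92.5% and 95.0% of its reads in 5p, yet its 3p arm ranked 6, 5 and 6 among all miRNAs of the 3 libraries. bantam had 7.79% ± 1.31 (SD, n = 3) of its reads in 5p, miR-14 had 9.16% ± 0.44 and miR-8 had 5.18% ± 0.63. miR-305 favoured 3p, with 5p at 154, 286.4 and 147 RPM, or 5.14%, 9.14% and 5.34% of the hairpin (log2 ratio -3.86). miR-11 had 28.3%, 22.2% and 31.2% in 5p (log2 ratio -1.42).

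Arms came close to equal in a few hairpins. miR-275 had 52.2%, 43.1% and 51.6% of its reads in 5p, with a log2 ratio of -0.06 ± 0.34 SE and an adjusted p of 0.863 in limma. The mirtron miR-1012, which is released by splicing in place of Drosha, had 46.0%, 49.4% and 36.0% in 5p (log2 ratio -0.35, adjusted p = 0.313). miR-958 had 57.7%, 60.3% and 63.9% in 5p, so 5p was the higher arm in 3 of 3 libraries. Its log2 ratio of 0.62 ± 0.34 SE did not pass with the common variance (limma adjusted p = 0.078) and did with its own (0.62 ± 0.11 SE, adjusted p = 0.040).

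miR-308, from an intron of RpS23, had the least settled balance. Its 5p arm stood at 7.06, 13.8 and 16.1 RPM and its 3p arm at 2.83, 46.8 and 0 RPM, so the dominant arm turned between libraries (limma adjusted p = 0.156). miR-988 had log2 ratio 0.71 (limma adjusted p = 0.045) on 5p reads of 5, 9 and 6, and lost its call with its own variance (0.71, adjusted p = 0.218) and without replicate 1 (0.34, adjusted p = 0.472). miR-34, of the hairpin studied in ageing fly brains, had 62.9%, 68.7% and 55.6% in 5p. Its log2 ratio of 0.74 passed (limma adjusted p = 0.040), and did not without replicate 1 (0.72, adjusted p = 0.136) or without replicate 2 (0.54, adjusted p = 0.095), nor with its own variance (0.74, adjusted p = 0.098). miR-996 favoured 3p with a log2 ratio of -0.80 (limma adjusted p = 0.026). That call was lost without replicate 1 (-0.92, adjusted p = 0.058) and without replicate 3 (-0.85, adjusted p = 0.075), and with its own variance (-0.80, adjusted p = 0.054).

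**Figure D2:**
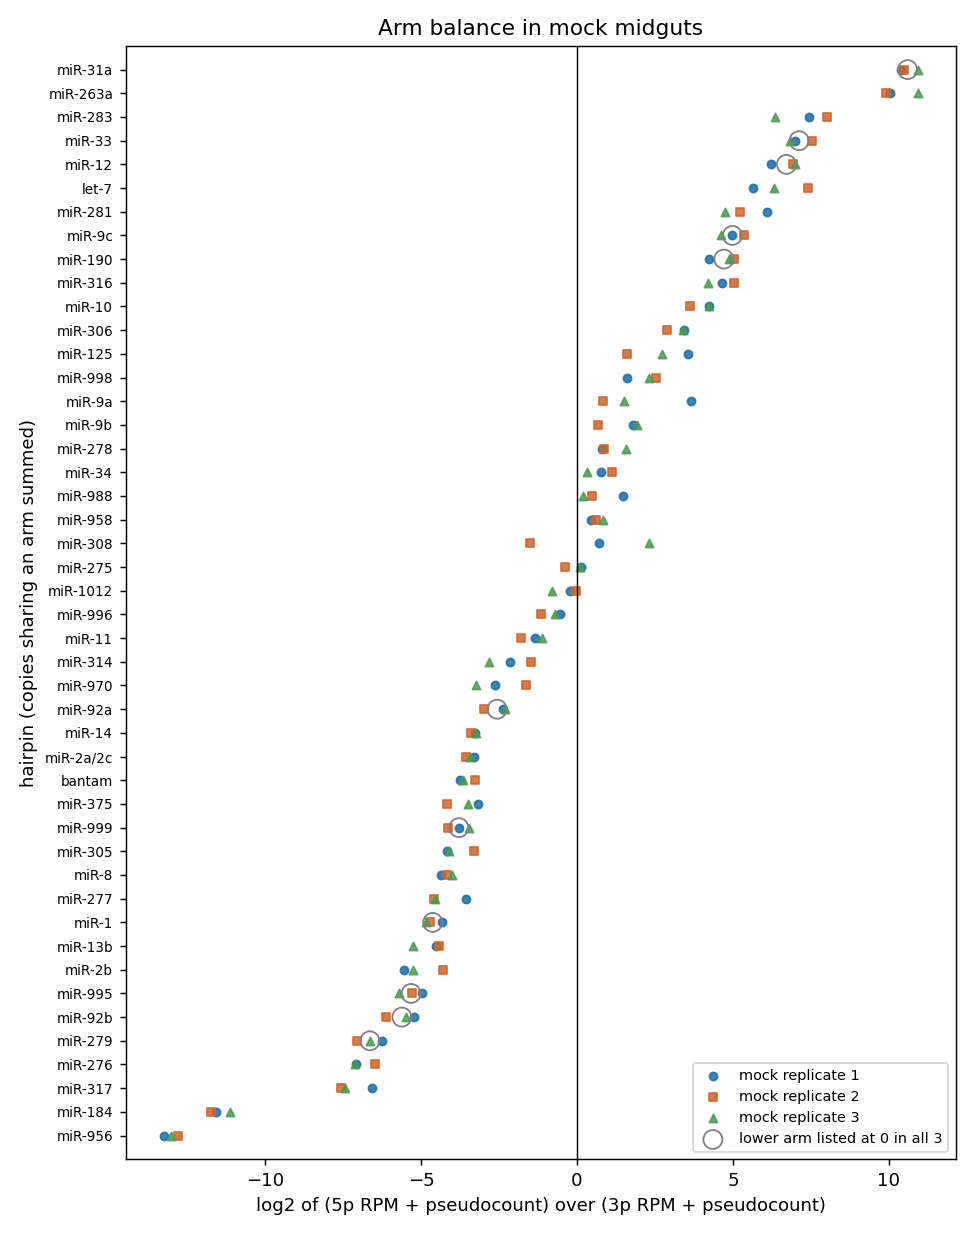
log2 ratio of 5p to 3p RPM (pseudocount added to each arm) for the 46 hairpins tested, 1 point for each of the 3 mock libraries. Open circles mark 11 hairpins whose lower arm was listed at 0 in all 3 libraries, and the points of miR-275 and miR-308 fall on both sides of the line at 0.

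Levels were next compared along clusters, taken as hairpins on a strand with gaps of at most 10 kb. The annotation gave 22 such clusters with 79 hairpins, of which 7 clusters had no listed read specific to a member and 10 had at least 2 members at a mean of 10 RPM or more. In those clusters neighbours often stood far apart. In limma all 15 of 15 testable neighbour pairs differed in RPM (100%), with the downstream hairpin higher in 8 (53.3%) and lower in 7 (46.7%). Every pair had the same direction in 3 of 3 libraries. Such p-values measure how steady a ratio of reads was, and a bias of capture shared by the libraries is not separated from RNA level. Folds between neighbours carry the pseudocount on both hairpins, which makes them smaller than the ratio of the RPM where a hairpin is scarce. The SE of each log2 ratio was 0.27, from a common variance, and each pair's own variance gave the same counts of 8 and 7. In 5 of these pairs a member was listed at 0 in all libraries, and without those pairs the count was 5 higher and 5 lower of 10.

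The cluster of miR-317, miR-277 and miR-34 on 3R was high at both ends. The summed arms gave miR-317 at 1055, 2856 and 2114 RPM, miR-277 at 492, 846 and 679 RPM and miR-34 at 1033, 2567 and 1663 RPM. miR-277 was 2.82-fold below miR-317 (log2 ratio -1.49, limma adjusted p = 4.61e-06) and miR-34 was 2.49-fold above miR-277 (log2 ratio 1.32, adjusted p = 2.81e-05). All 3 hairpins were lowest in replicate 1 and highest in replicate 2 in RPM. Among the 64 miRNAs with a mean of at least 20 RPM, replicate 1 was lowest for 43 and replicate 2 highest for 46. With TMM scaling miR-317-3p (1301, 2281 and 2117 RPM) and miR-34-5p (806, 1413 and 928 RPM) were still highest in replicate 2. On that scale miR-277-3p (566, 654 and 658 RPM) and miR-34-3p (475, 645 and 743 RPM) were highest in replicate 3. Whether the cluster moved as a unit was not tested. The share of miR-277 in the cluster was 19.1%, 13.5% and 15.2%.

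The let-7 complex on 2L, whose products time the passage from larva to adult, was uneven. miR-100 stood at 15.5, 11.02 and 22.1 RPM, let-7 at 342, 680.3 and 313.3 RPM and miR-125 at 79.1, 107 and 130.5 RPM. let-7 was 21.4-fold above miR-100 on the scale with the pseudocount (limma adjusted p = 4.03e-16) and miR-125 was 3.92-fold below let-7 (adjusted p = 3.88e-08). The gap between hairpins was 500 bp and 203 bp.

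miR-275 and miR-305 lie 79 bp apart on 2L. miR-275 stood at 322, 397 and 428 RPM and miR-305 at 2995, 3134 and 2743 RPM, so miR-305 made up 90.3%, 88.8% and 86.5% of the pair (7.71-fold, limma adjusted p = 5.74e-12). In an intron of E2f1, miR-11 stood at 1445, 2955 and 2038 RPM and miR-998 at 25.4, 19.3 and 16.1 RPM (86.0-fold, adjusted p = 1.53e-20). miR-11 limits cell death that E2f1 sets off, and miR-998 is known to act from the same intron.

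In both of the next clusters a silent hairpin lay between neighbours with reads. On X, in an intron of Gmap, miR-283 stood at 697, 1030 and 989.97 RPM and miR-12 at 295, 485 and 508 RPM, while miR-304 between them was listed at 0 in all 3 libraries. On 2L, in an intron of grp, miR-9c stood at 123, 160 and 94.4 RPM, miR-306 at 39.6, 71.6 and 38.2 RPM and miR-9b at 48.0, 52.3 and 40.2 RPM. miR-79, between miR-306 and miR-9b, was listed at 0 in all 3.

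Clusters of paralogues were unequal too. The 5p arm of miR-281-2, at 1327, 1465 and 962 RPM, was 11.4-fold above that of miR-281-1 (97.5, 107 and 108 RPM, limma adjusted p = 8.85e-14), although their hairpins in an intron of Oda lie 128 bp apart on 2R. miR-281 is abundant in insect midguts. Reads of such near-identical arms may have been split between the copies by the authors' assignment. miR-92b, at 147, 275 and 177 RPM, was 8.31-fold above miR-92a on 3R with the pseudocount (17.0, 27.5 and 16.1 RPM, adjusted p = 2.65e-12). miR-279, which specifies sensory neurons together with miR-996, was 3.25-fold above miR-996 (adjusted p = 5.80e-07), at 299.5, 526 and 394 RPM against 96.1, 190.0 and 92.4 RPM.

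The miR-2 hairpins in an intron of spi on 2L could be told apart by their 5p arms alone. miR-2b-2-5p stood at 15.5, 63.3 and 26.1 RPM, miR-2a-2-5p at 7.06, 11.02 and 12.05 RPM and miR-2a-1-5p at 4.24, 0 and 0 RPM. Both hairpins named 2b share a 3p arm, and the 5p arm of the other, miR-2b-1 in Btk, was listed at 0. In the pair of miR-4969 and miR-999, in an intron of CASK on 3R, miR-4969 was listed at 0 and miR-999 stood at 50.9, 66.1 and 40.2 RPM.

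**Figure D3:**
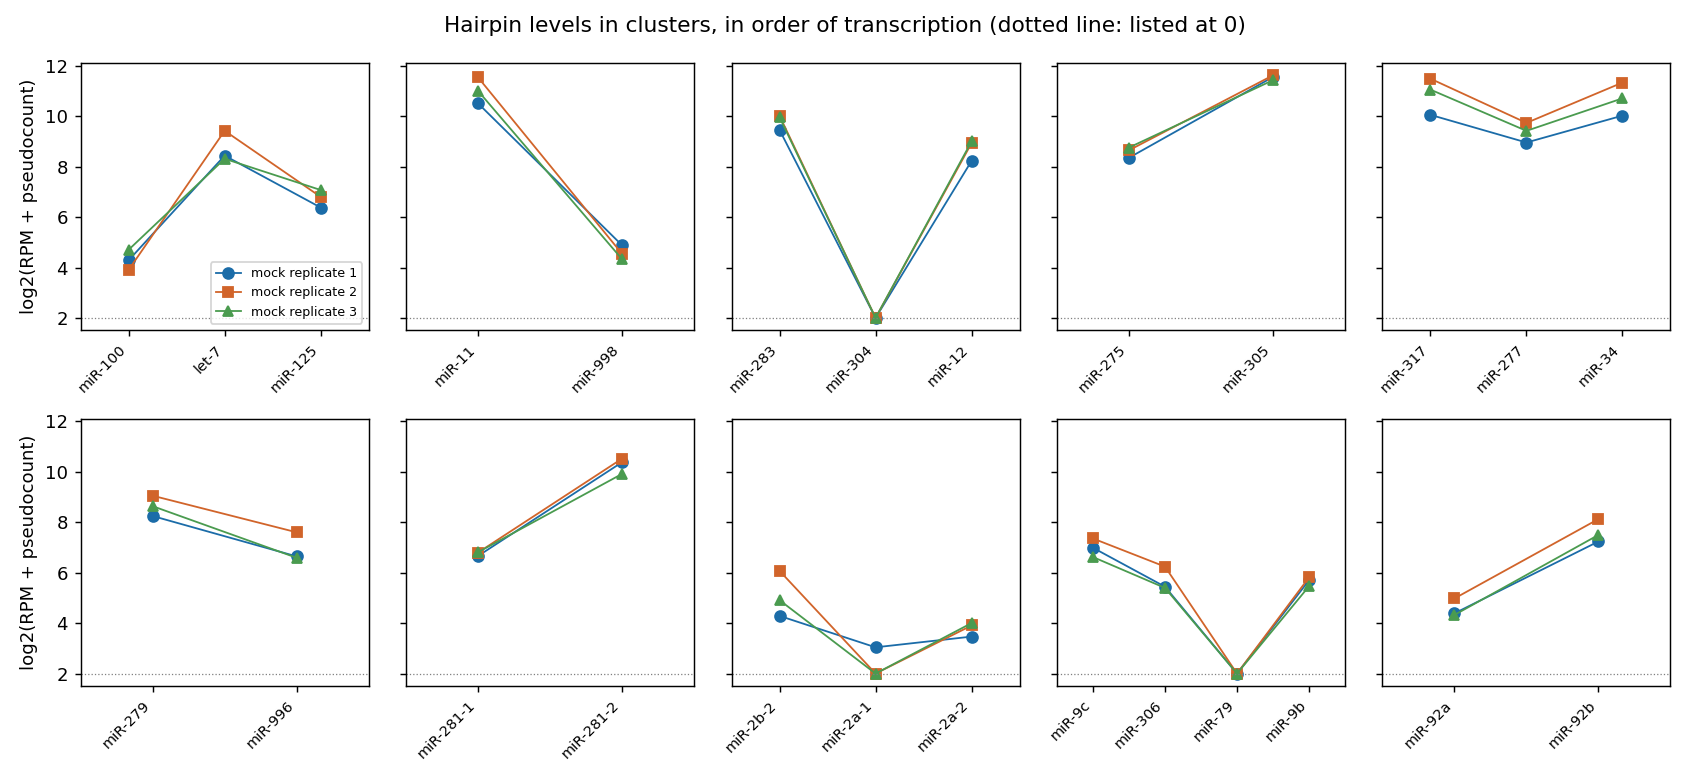
log2(RPM + pseudocount) of each hairpin, arms summed, in the 10 clusters with at least 2 members at 10 RPM, drawn in order of transcription with 1 line for each mock library. In the miR-281 and miR-2 clusters only arms specific to a copy are drawn, and the dotted line marks 0, where miR-304 and miR-79 lie in all 3 libraries.

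Seed families were taken from textbook lists. In the K box family, whose members target a motif in Notch pathway messages, 5 of 7 miRNAs had a mean of at least 10 RPM and 2 carried most of the reads. miR-11-3p made up 44.98%, 54.6% and 46.4% of the family and miR-2b-3p 39.2%, 31.1% and 38.0%. miR-13b-3p held 9.43% ± 0.57 (SD, n = 3), and miR-2a-3p and miR-2c-3p, which the table does not separate, held 5.34% ± 1.12. miR-308-3p stood at 0.41% ± 0.61, miR-6-3p was listed in replicate 2 only, and miR-13a-3p was listed at 0. The family as a whole stood at 2306, 4211 and 3022 RPM.

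The other families leaned on 1 member each. miR-9c-5p made up 58.8%, 72.5% and 59.5% of the miR-9 family, beside miR-9b-5p at 18.5% ± 3.28 and miR-9a-5p, known from sensory organ precursors, at 17.9% ± 4.98. miR-279-3p made up 81.5%, 77.0% and 87.1% of its family with miR-996-3p and miR-286-3p. miR-92b-3p made up 89.7%, 88.5% and 91.7% of the miR-92 family, in which miR-310-3p, miR-311-3p and miR-313-3p were listed at 0. miR-995-3p, from an intron of Cdk2, made up 96.7%, 100% and 100% of the family with miR-285-3p and miR-998-3p.

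Paralogue pairs were uneven as well, though here too reads of near-identical members may have been split by the authors' assignment. miR-276a-3p made up 99.7% ± 0.25 of the miR-276 reads, with miR-276b-3p at 7.06, 0 and 10.04 RPM. miR-31a-5p made up over 99.9% of the miR-31 reads, with miR-31b-5p at 4.24, 0 and 4.02 RPM. miR-263b, the paralogue of miR-263a, was listed at 0 for both arms.

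**Figure D4:**
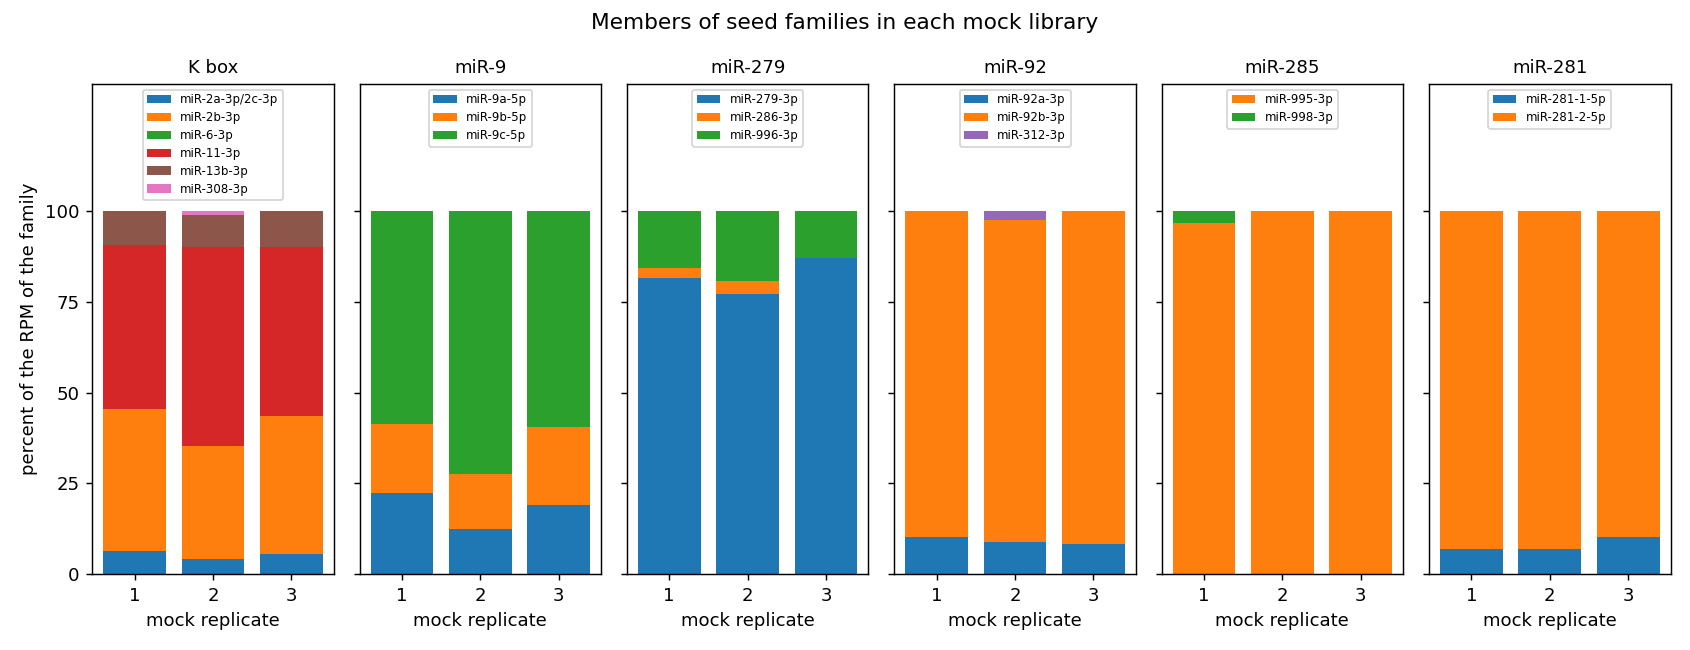
Percent of each family's RPM held by its members in each of the 3 mock libraries, for 6 seed families (bars stacked to 100). The leading member is the same in all 3 libraries of each family, with miR-11-3p ahead of miR-2b-3p in the K box family.

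Most known miRNAs were not detected at this depth. Of 467 names 357 (76.4%) were listed at 0 in all 3 mock libraries. With arms and sharing copies joined into 249 hairpins, 177 had no listed read. Among hairpins numbered below 1000, together with bantam, let-7 and those of the bithorax complex, 64 of 126 were listed. Among those numbered from 1000 up, which were mostly named later from deep sequencing, 8 of 123 were. A further 28 miRNAs were listed in 1 or 2 libraries, none of them above 46.8 RPM.

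Markers of other tissues were at low levels, and their counts stand beside 110 listed of all 467 names. In the neuronal list 1 of 10 arms was listed, miR-137-3p at 5, 4 and 6 reads, while miR-124, the defining neuronal miRNA, was listed at 0, and so were miR-210, miR-932 and miR-1000. In the testis list 1 of 40 arms was listed, miR-982-5p at 3 reads in replicate 1, and the clusters of miR-959 to miR-964 and miR-972 to miR-979 were silent throughout. In the ovary list 2 of 6 arms were listed, miR-318-3p and miR-994-5p, and they summed to 4.24, 16.5 and 0 RPM, with miR-989 at 0. In the early embryo list 2 of 14 arms were listed, miR-286-3p and miR-6-3p, and they summed to 9.89, 33.0 and 0 RPM, with miR-309 and miR-3 at 0.

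In the muscle list 1 of 4 arms was listed. miR-1-3p, the defining muscle miRNA, stood at 76.3, 102 and 110.4 RPM (54, 37 and 55 reads), below 44 other miRNAs of the gut, and both arms of miR-133 were listed at 0. The part of muscle in other values was not tested. In the midgut list 16 of 17 arms were listed, and their sum was 50098, 66930 and 76954 RPM. The arm at 0 was miR-31a-3p. That list was chosen with earlier results of these data known, so its count is no evidence of the tissue.

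The mirtrons of the list used here, miR-1003 to miR-1016, were listed about as often as miRNAs in general. Hairpins with higher numbers were not in that list, whether mirtrons or not. In the list of 14 mirtron hairpins 5 of 23 arms were listed, against 110 of all 467 names, with sums of 172, 432 and 329 RPM, nearly all from miR-1012. Its 3p arm stood at 86.2, 215 and 193 RPM and its 5p arm at 73.5, 209 and 108 RPM. Both arms were lowest in replicate 1, as were 43 of the 64 miRNAs with a mean of at least 20 RPM. miR-1010-3p stood at 12.7, 8.26 and 20.1 RPM, and miR-1003-3p and miR-1004-3p had 2 reads each in replicate 3. The remaining 10 hairpins of that list were listed at 0.

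Some miRNAs with known roles elsewhere were near the limit. miR-7-5p, which acts in Notch and EGF receptor signalling, stood at 8.48, 5.51 and 8.03 RPM. miR-252-5p had 2 reads, in replicate 1. miR-10404-5p, which lies in a spacer of the ribosomal RNA units, stood at 8.48, 11.02 and 8.03 RPM. The Hox miRNAs of the bithorax complex, miR-iab-4 and miR-iab-8, were listed at 0. miR-10 of the Antennapedia complex stood at a mean of 112681 RPM over both arms. miR-993, near miR-10 on 3R (6776333 to 6776451, plus strand), was listed at 0 too, so no contrast between the complexes is drawn. miR-7, miR-252, miR-10404, miR-993 and the bithorax miRNAs were picked after their values were seen.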

How the data were processed

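RPM values were deposited by the authors for 467 miRNAs, and each column sums to 1000000. The name of that table mentions miRge, a tool that assigns reads to known miRNAs, while its aligner, miRNA database release and genome build are not given in the sources used here. Library totals assume that the largest step of which every RPM value is a whole multiple (within 4.42e-07) is 1 read. They were not used in a count test. The members and lists were chosen with earlier results of these data known, and the seed families were written after the files were seen, with no sequences used here.

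limma 3.58.1 in R 4.3.3 tested log2 ratios within each of the 3 mock libraries against 0, with 2 residual degrees of freedom, Benjamini-Hochberg adjustment over all hairpins or pairs and a threshold of 0.05. Filters were 20 RPM on the mean of the summed arms, or on the mean of a pair. The pseudocount was 2 reads at the median depth of 497997. limma's prior degrees of freedom were infinite, so all ratios share a variance and the smallest p-values lean on it. The fit was tested on 1000 simulated ratios, where it called 77% of those with a log2 ratio of size 1. It called 100% of those of size 2 and 1.25% of those at 0. Those ratios were drawn with a common SD before reads were sampled, so they cannot check the shared variance. The authors' deposited table of comparisons and the columns of the other 6 libraries were not used here.

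Named were the 20 most abundant miRNAs, 5 hairpins at each end and the 5 nearest to equal arms, clusters and families with 2 members at 10 RPM, and list members. Further hairpins in the account of the arms (miR-34, miR-996, miR-10, miR-305, miR-11, bantam, miR-8 and miR-14) and the hairpin beside miR-956 were added after their values were seen. Rank, family and absence counts have no test. TMM trimmed 30% of log ratios and 5% of abundances.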

Additional observations from a re-analysis of the deposited data

How the results depend on the processing

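No paired analysis was possible because only the mock group is described and no groups are compared. Of the recomputed counts and shares, 87 kept their size (counts within 1.5 times, shares within 1 SD) and 1 did not. Without pairs that hold a hairpin listed at 0, an alternative chosen after seeing the data, the downstream hairpin was higher in 5 pairs in place of 8. Leaving out a mock library gave 17 to 18 hairpins for 5p and 22 for 3p, 8 neighbour pairs with the downstream hairpin higher and 6 to 7 with it lower. In those fits miR-956-3p held 72.9% to 76.0% of the reads. With each hairpin's own variance, also chosen after seeing the data, limma called 14 hairpins for 5p and 22 for 3p. With no filter it called 24 and 27 of 72, and with a pseudocount of 0.5 RPM 17 and 23 of 46. Of the recomputed arm ratios of named hairpins, 198 kept their call or lack of one, 14 lost it (of miR-34, miR-988 and miR-996) and 4 gained one (of miR-958). miR-958 gained it with a pseudocount of 10 RPM, a filter of 100 RPM, TMM scaling and its own variance. No named ratio or pair changed direction with a call. All 181 recomputed neighbour ratios kept their call. The planned comparison of seeds by bases 2 to 7 was not run, since no sequences were used. Depth limits the scarce end, where 2 reads are worth up to 5.51 RPM.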
